A study of Mus musculus with 14 samples.

Results

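The 10 mitochondrial chaperones and proteases, Hspd1, Hspe1, Trap1, Lonp1, Clpp, Clpx, Afg3l2, Yme1l1, Htra2 and Oma1, were followed in ribosome-bound mRNA from mouse dopaminergic neurons that lacked transferrin receptor 1 (Tfr1) and from controls. All probe sets carrying the symbol of a member were taken, which gave 20 probe sets for the 10 genes, out of 34945 probe sets for 18193 genes on the array. Hspd1, Lonp1 and Oma1 each had 1 probe set, Yme1l1 had 4, Afg3l2 had 3 and each of the other members had 2. Values were log2 signals on Affymetrix arrays.

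The neurons came from ventral midbrain of F2 mice of 129Sv and C57BL/6, all bred onto the RiboTag background, in which an epitope tag on a ribosomal protein lets the mRNA of a chosen cell type be pulled out of a tissue lysate. Tfr1-null mice lacked Tfr1, the receptor that takes up transferrin-bound iron, in dopaminergic neurons, and the controls were heterozygous for the Tfr1 allele, so controls were not wild type. The groups were 4 Tfr1-null and 3 control libraries at 3 weeks of age, and 3 Tfr1-null and 4 control libraries at 10 weeks, ages that the submitters describe as early and late neurodegeneration. The sources used here give neither the Cre driver nor the number of animals per library, and no label says that replicates were separate animals, so p-values measure only the spread between these libraries, which may be technical.

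Matrix proteins enter the organelle unfolded, and chaperones fold them there. Hspd1 (HSP60) and its lid Hspe1 (HSP10) form the chaperonin chamber, and Trap1 is the mitochondrial member of the HSP90 family. Proteins that cannot be folded or are no longer needed are cut by ATP-driven proteases, namely Lonp1 and the Clpx-Clpp pair in the matrix, Afg3l2 facing the matrix from the inner membrane, and Yme1l1 facing the intermembrane space. Oma1 is a stress-activated metalloprotease of the inner membrane, and Htra2 is a serine protease of the intermembrane space. Yme1l1 and Oma1 both cut the inner membrane fusion protein Opa1, and Oma1 also cuts Dele1, a step that in human cells carries a mitochondrial stress signal to the cytosol.

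The labels of 2 libraries were doubtful. The library labelled Tfr1-null 3 weeks 1 has a source name that calls it a control. Its middle Tfrc control probe set read 8.82, against 10.70 to 10.98 in the other Tfr1-null libraries of that age and 8.80 to 8.86 in controls. The library labelled control 10 weeks 1 read 11.43 on that probe set, against 11.39 to 11.69 in Tfr1-null libraries and 9.17 to 9.86 in the other controls of that age. The 5′ probe set of Tfrc ran the other way, with 6.88 to 7.73 in the other Tfr1-null libraries at 3 weeks, against 9.50 to 9.59 in controls. The deleted exons are not given, so these probe sets may lie outside the deleted part. Calls are therefore given for all 14 libraries as labelled and for 12 libraries without these 2, which leaves 3 in each group, and a difference with no number of libraries named is from the 12. Array medians ran from 6.41 to 6.47 at 3 weeks and from 7.36 to 7.43 at 10 weeks, so levels were not compared between ages. Libraries of the same age correlated at 0.989 to 0.996 at 3 weeks and at 0.968 to 0.986 at 10 weeks. The 3′ minus 5′ signal of Gapdh, a sign of RNA length, was 0.556 to 0.706 in Tfr1-null and 0.635 to 0.742 in control libraries at 3 weeks, and 0.575 to 0.665 in Tfr1-null and 0.606 to 0.708 in control libraries at 10 weeks.

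Promoter windows, from 250 bases before to 50 bases after the start of each gene, were taken from RefSeq (GRCm38.p6), and they are shown for the members whose signal changed and for Hspd1, the partner of Hspe1. Windows of 8 of the 10 members were used, 9 in all since Hspd1 has a pair of starts, and Afg3l2 and Htra2 are named only. Capitals mark matches on either strand to the heat shock element (GAANNTTC or TTCNNGAA), the core of the nuclear respiratory factor NRF1 (GCGCNTGCG), the hypoxia response core (ACGTG) or the C/EBP-ATF response element (TGATGNAA). Each is written 5′ to 3′ on the strand of the gene.
Hspe1, chr1:55087898-55088197, plus strand: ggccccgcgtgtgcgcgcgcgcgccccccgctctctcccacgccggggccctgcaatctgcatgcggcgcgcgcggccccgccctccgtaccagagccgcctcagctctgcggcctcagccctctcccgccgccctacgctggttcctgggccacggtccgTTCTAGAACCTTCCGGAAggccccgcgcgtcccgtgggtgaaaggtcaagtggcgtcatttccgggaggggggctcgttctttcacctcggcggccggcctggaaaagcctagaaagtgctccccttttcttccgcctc
Hspd1, chr1:55088194-55088493, minus strand: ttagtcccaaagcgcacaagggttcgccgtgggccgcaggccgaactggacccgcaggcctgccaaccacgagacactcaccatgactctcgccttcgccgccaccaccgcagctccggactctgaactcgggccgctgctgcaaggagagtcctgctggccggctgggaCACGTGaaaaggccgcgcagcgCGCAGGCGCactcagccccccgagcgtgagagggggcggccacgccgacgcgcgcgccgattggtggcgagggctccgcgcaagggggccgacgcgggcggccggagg
Lonp1, chr17:56626854-56627153, minus strand: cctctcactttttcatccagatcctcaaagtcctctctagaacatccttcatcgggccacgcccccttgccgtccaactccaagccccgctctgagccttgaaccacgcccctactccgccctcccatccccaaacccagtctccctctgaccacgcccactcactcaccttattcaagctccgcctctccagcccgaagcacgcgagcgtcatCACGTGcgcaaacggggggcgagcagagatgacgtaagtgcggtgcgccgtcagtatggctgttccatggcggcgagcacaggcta
Yme1l1, chr2:23156255-23156554, plus strand: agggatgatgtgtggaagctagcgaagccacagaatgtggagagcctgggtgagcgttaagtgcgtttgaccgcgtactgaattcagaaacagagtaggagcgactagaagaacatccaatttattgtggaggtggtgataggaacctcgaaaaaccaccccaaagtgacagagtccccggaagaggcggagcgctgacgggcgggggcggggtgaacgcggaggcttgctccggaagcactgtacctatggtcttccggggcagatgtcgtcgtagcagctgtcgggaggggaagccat
Oma1, chr4:103313596-103313895, plus strand: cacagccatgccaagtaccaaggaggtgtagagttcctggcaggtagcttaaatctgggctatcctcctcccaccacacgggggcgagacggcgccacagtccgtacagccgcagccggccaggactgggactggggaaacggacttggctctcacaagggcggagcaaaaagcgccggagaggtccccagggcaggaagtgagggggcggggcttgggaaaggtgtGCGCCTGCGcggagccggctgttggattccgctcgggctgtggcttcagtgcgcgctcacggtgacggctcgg

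Hspd1 and Hspe1 lie head to head on chromosome 1. The Hspe1 window shares 285 bases with the window of the other Hspd1 start (chr1:55087883-55088182, minus strand), so the 3 overlapping heat shock matches at -89 to -72 from the Hspe1 start are also those at -144 to -127 from that Hspd1 start. The heat shock element was found in 3 of the 9 member windows and in 15.1% of 32851 windows of all genes. The NRF1 core was found in 3 member windows and in 6.31% of all, one of them at -23 to -15 from the Oma1 start and one at -58 to -50 from the Hspd1 start printed above. The hypoxia core was found in 3 member windows and in 19.6% of all. Its matches in the Lonp1 window, at -36 to -31, and in the printed Hspd1 window, at -80 to -75, are both strands of 1 palindrome, CACGTG. The C/EBP-ATF element was found in 0 of the 9 member windows and in 3.97% of all, and the Yme1l1 window held no match to any of these motifs. A match is a run of letters and shows no binding.

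Lonp1 rose at both ages when the 2 doubtful libraries were left out, and at 10 weeks it was the member with the largest difference. At 10 weeks Yme1l1 rose on 1 of its 4 probe sets, and Oma1 and 1 of 2 Hspe1 probe sets fell. With all 14 libraries as labelled, no member passed the threshold at either age. The other 6 members, Hspd1, Trap1, Clpp, Clpx, Afg3l2 and Htra2, were not called in any of these fits. With 14 libraries the differences of their 12 probe sets lay from -0.24 to 0.10 at 3 weeks and from -0.09 to 0.32 at 10 weeks (lowest adjusted p = 1.00 and 0.313), and with 12 libraries from -0.45 to 0.17 and from -0.14 to 0.30 (0.787 and 0.189).

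In counts, limma with Benjamini-Hochberg adjustment over all 34945 probe sets called 1 of 20 member probe sets at 3 weeks with 12 libraries, higher in Tfr1-null, at adjusted p under 0.05. Over all probe sets, 1.08% were called in this comparison and 0.458% were called higher. At 10 weeks with 12 libraries it called 4 of 20 member probe sets, 2 higher and 2 lower. Over all probe sets 9.33% were called there, 4.54% higher and 4.79% lower. With 1 probe set per gene, 2 of 10 members were called there, against 2015 of 18193 genes. These counts are too small to set the members apart from the background. With 14 libraries limma called 0 of 20 member probe sets at 3 weeks, where 0.0% of all probe sets were called. At 10 weeks it called 0 of 20, where 0.738% were called. At unadjusted p under 0.05 the 14-library fit had 0 member probe sets at 3 weeks and 3 at 10 weeks, against 2 and 7 in the 12-library fit. Over all probe sets, unadjusted p was under 0.05 for 1391 at 3 weeks and 6687 at 10 weeks with 14 libraries, and for 3219 and 8748 with 12.

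The median difference over the 20 member probe sets was close to that of all probe sets. With 12 libraries it was 0.03 at 3 weeks and 0.06 at 10 weeks (log2, Tfr1-null minus control), against 0.01 and 0.003 over all probe sets. With 14 libraries it was 0.03 at 3 weeks and 0.04 at 10 weeks, against 0.009 and 0.0003. The groups did not overlap for 6 of 20 member probe sets at 3 weeks and for 5 at 10 weeks with 12 libraries, shares that compare with 22.6% and 21.2% of all probe sets. With 14 libraries they did not overlap for 0 and for 2, against 7.51% and 9.67% of all.

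**Figure D1:**
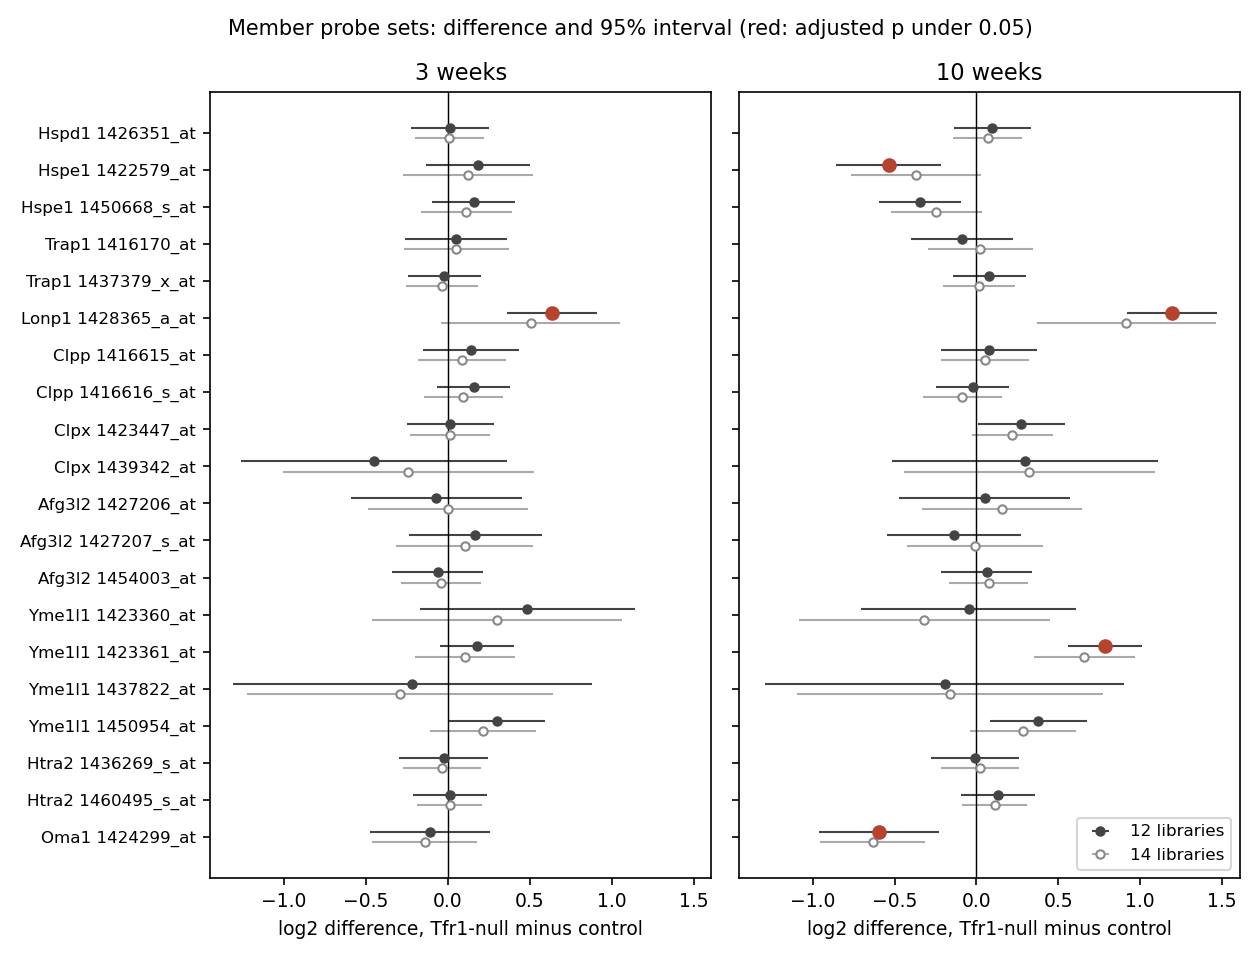
Log2 difference (Tfr1-null minus control, horizontal axis) of each of the 20 member probe sets (vertical axis) at 3 weeks (left panel) and 10 weeks (right panel), with 95% intervals from limma; filled points are from 12 libraries, open points from all 14, and red marks adjusted p under 0.05. Lonp1 lies right of 0 at both ages with 12 libraries, and the dim probe sets of Yme1l1 and Clpx have the widest intervals.

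Hspd1, the chamber of the chaperonin, was among the brightest signals, at percentiles 97.0 to 98.2 of the arrays. At 3 weeks it read 12.45 in the doubtful library and 12.48, 12.45 and 12.48 in the other Tfr1-null libraries, against 12.50, 12.42 and 12.44 in controls. The 10-week values were 13.30, 13.33 and 13.20 in Tfr1-null, against 13.29 in the doubtful library and 13.30, 12.94 and 13.29 in the other controls. The groups overlapped at both ages, and the only low value was in control 10 weeks 3. The difference with 12 libraries was 0.01 ± 0.11 (SE, adjusted p = 1.00) at 3 weeks, with a 95% interval of -0.22 to 0.25, and 0.10 ± 0.11 (adjusted p = 0.632) at 10 weeks, with an interval of -0.14 to 0.33.

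Hspe1, the lid of that chamber, fell at 10 weeks on its probe set 1422579_at. At 3 weeks this probe set read 11.11 in the doubtful library and 11.32, 11.42 and 11.37 in the other Tfr1-null libraries, against 11.15, 11.19 and 11.22 in controls. Its 10-week values were 12.11, 12.05 and 11.53 in Tfr1-null, against 11.77 in the doubtful library and 12.46, 12.56 and 12.29 in the other controls. Without the doubtful libraries the Tfr1-null values were all above controls at 3 weeks and all below at 10 weeks, while each doubtful library lay nearer to the other genotype. The 3-week difference of 0.18 ± 0.14 did not pass (adjusted p = 0.866), and the 10-week difference was -0.54 ± 0.14 (adjusted p = 0.0427, 0.689-fold, n = 3 each).

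The other Hspe1 probe set, 1450668_s_at, whose suffix says that it can match more than 1 transcript, separated the genotypes in the same directions. Its 3-week values were 12.89 in the doubtful library and 13.08, 13.12 and 13.00 in the other Tfr1-null libraries, against 12.88, 12.92 and 12.93 in controls, a difference of 0.16 ± 0.11 (adjusted p = 0.840). At 10 weeks it read 13.63, 13.70 and 13.28 in Tfr1-null, against 13.48 in the doubtful library and 13.94, 13.91 and 13.79 in the other controls, a difference of -0.34 ± 0.11 that missed the threshold (adjusted p = 0.0867). With 14 libraries the 10-week differences were -0.37 ± 0.18 and -0.24 ± 0.13 (adjusted p = 0.292 and 0.326). The 12-library call on 1422579_at was lost without any one of the 6 libraries of 3 weeks (adjusted p 0.0625 to 0.0685), where the 10-week difference itself stayed -0.54. Leaving out control 10 weeks 2 (0.0806) or 3 (0.111) ended the call too. So did leaving out Tfr1-null 10 weeks 3, the lowest, where the difference was -0.35 (0.0756). The call was also lost with each age fitted alone (0.257) and with array weights (0.116). Whether the change of Hspe1 differed from that of Hspd1 was not tested.

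**Figure D2:**
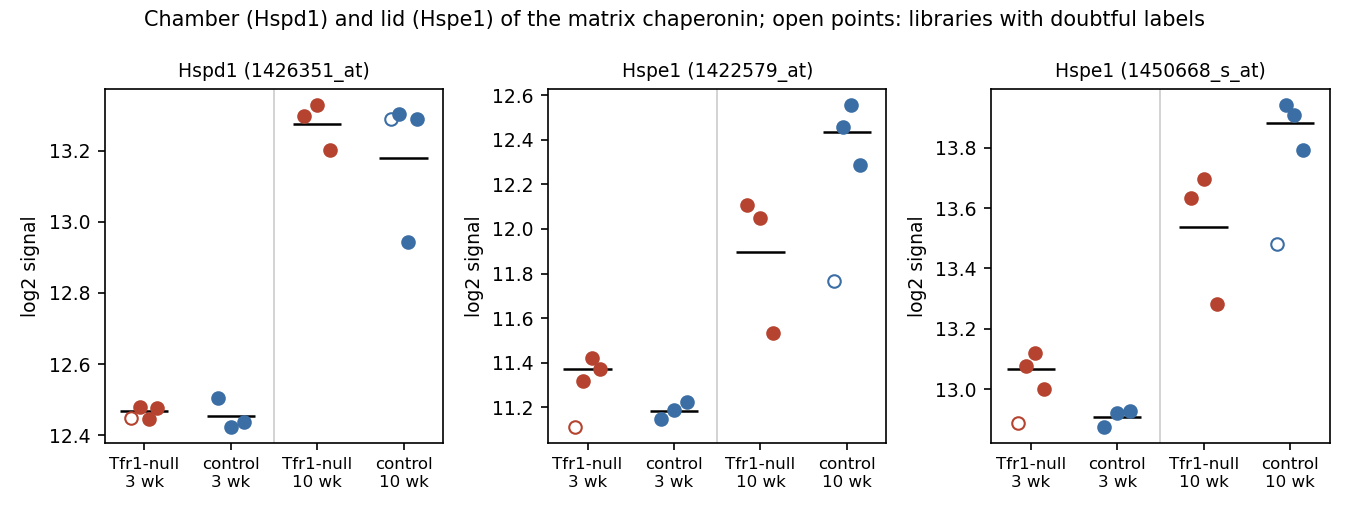
Log2 signal (vertical axis) of Hspd1 and of both Hspe1 probe sets in each library, by genotype and age (horizontal axis); points are libraries, open points are the 2 with doubtful labels and bars are group means without them. Hspd1 overlaps between genotypes, while Hspe1 in Tfr1-null at 10 weeks lies below the controls with sure labels.

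Trap1, which in other cells protects against oxidative damage, overlapped between genotypes on both probe sets. On 1416170_at it read 10.35 in the doubtful library and 10.29, 10.48 and 10.24 in the other Tfr1-null libraries, against 10.33, 10.29 and 10.24 in controls at 3 weeks. The values at 10 weeks were 11.21, 11.06 and 11.49 in Tfr1-null, against 10.90 in the doubtful library and 11.58, 11.30 and 11.14 in the other controls. With 12 libraries its differences were 0.05 ± 0.14 at 3 weeks (95% interval -0.26 to 0.36) and -0.09 ± 0.14 at 10 weeks (-0.40 to 0.23).

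Lonp1, the AAA+ protease that clears damaged matrix proteins and binds mitochondrial DNA, was higher in Tfr1-null on its probe set 1428365_a_at. At 3 weeks it read 10.04 in the doubtful library and 10.70, 10.43 and 10.59 in the other Tfr1-null libraries, against 10.08, 10.00 and 9.72 in controls. At 10 weeks it read 11.68, 11.45 and 11.66 in Tfr1-null, against 11.51 in the doubtful library and 10.41, 10.50 and 10.30 in the other controls. Among the libraries with sure labels every Tfr1-null value lay above every control of its age, while the doubtful Tfr1-null library fell among the controls and the doubtful control fell among the Tfr1-null libraries.

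The difference with 12 libraries was 0.64 ± 0.12 at 3 weeks (adjusted p = 0.0388, 1.56-fold) and 1.19 ± 0.12 at 10 weeks (adjusted p = 0.000394, 2.29-fold, n = 3 each). With all 14 libraries it was 0.50 ± 0.25 at 3 weeks (adjusted p = 1.00) and 0.92 ± 0.25 at 10 weeks (adjusted p = 0.0913). The 10-week call held without any one of the 12 libraries (adjusted p 0.000638 to 0.00233). The 3-week call of Lonp1 was lost without any one of the 6 libraries of that age (adjusted p 0.0637 to 0.192), without Tfr1-null 10 weeks 3 (0.0541) and without control 10 weeks 2 (0.0514). Without either of those 10-week libraries the 3-week difference itself stayed 0.64.

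**Figure D3:**
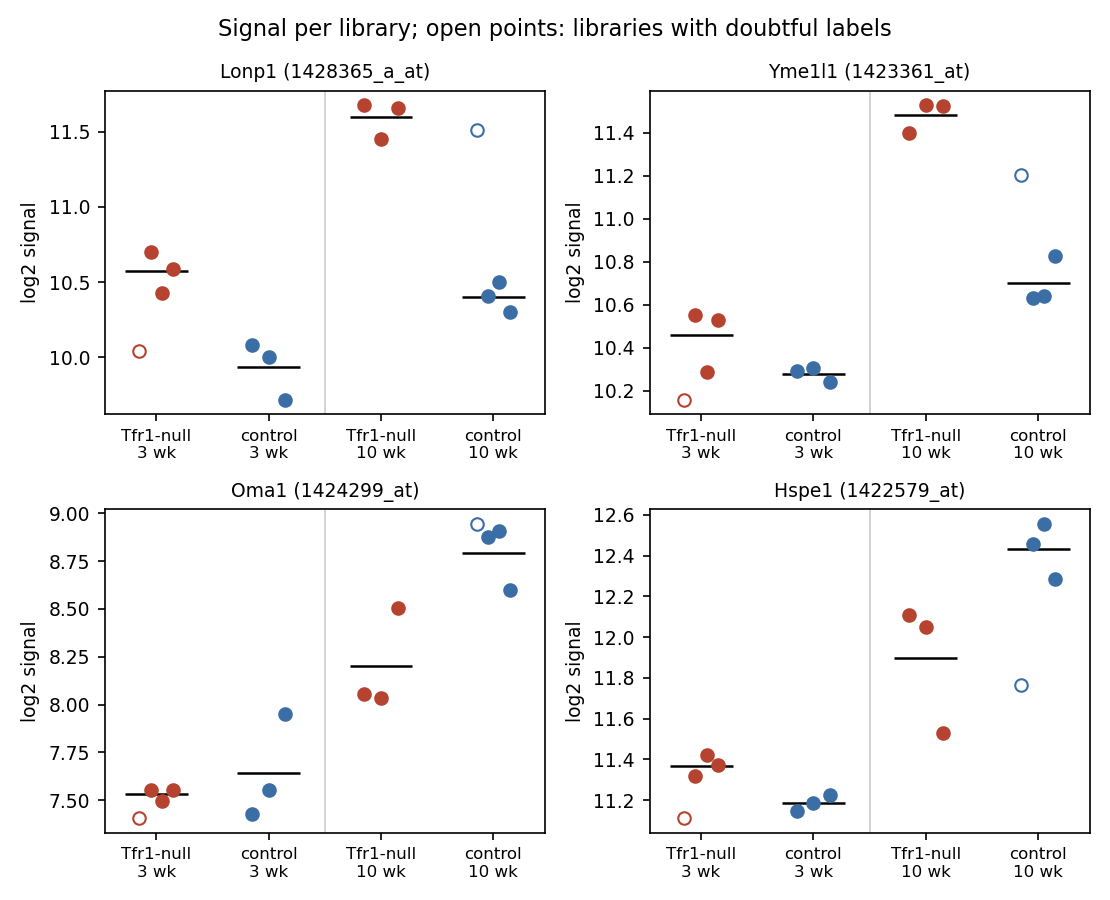
Log2 signal (vertical axis) of Lonp1, Yme1l1 (1423361_at), Oma1 and Hspe1 (1422579_at) in each library, by genotype and age (horizontal axis); points are libraries, open points are the 2 with doubtful labels and bars are group means without them. Lonp1 in Tfr1-null at 10 weeks lies between 11.45 and 11.68, above the 10.30 to 10.50 of the controls with sure labels.

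Clpp, the peptidase chamber of the other matrix protease, was bright and differed little. On 1416616_s_at it read 11.65 in the doubtful library and 11.86, 11.94 and 11.89 in the other Tfr1-null libraries, against 11.66, 11.75 and 11.80 in controls at 3 weeks. By 10 weeks the values were 12.73, 12.63 and 12.89 in Tfr1-null, against 13.02 in the doubtful library and 12.66, 12.90 and 12.75 in the other controls. The 3-week groups with sure labels did not overlap, but the difference of 0.16 ± 0.10 did not pass (adjusted p = 0.787), and that at 10 weeks was -0.02 ± 0.10 (95% interval -0.25 to 0.20).

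Clpx, the unfoldase that feeds Clpp, read 9.64, 9.40 and 9.44 in Tfr1-null at 10 weeks on 1423447_at, against 9.43 in the doubtful library and 9.11, 9.15 and 9.40 in the other controls. The groups touched at 9.40, and the difference of 0.27 ± 0.12 did not pass (adjusted p = 0.189). At 3 weeks it was 0.01 ± 0.12. The other probe set of Clpx, 1439342_at, was dim, at percentiles 32.2 to 50.4 of the arrays, with differences of -0.45 ± 0.37 at 3 weeks and 0.30 ± 0.37 at 10 weeks.

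Yme1l1, the inner membrane protease that faces the intermembrane space, rose at 10 weeks on 1423361_at. This probe set read 11.40, 11.53 and 11.52 in Tfr1-null, against 11.20 in the doubtful library and 10.63, 10.64 and 10.83 in the other controls. The Tfr1-null values were all above the controls, the doubtful one included. The difference was 0.78 ± 0.10 with 12 libraries (adjusted p = 0.00141, 1.72-fold) and 0.66 ± 0.14 with 14 (adjusted p = 0.0539). At 3 weeks it read 10.16 in the doubtful library and 10.55, 10.29 and 10.53 in the other Tfr1-null libraries, against 10.29, 10.30 and 10.24 in controls, a difference of 0.18 ± 0.10 (adjusted p = 0.728).

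Of the 4 Yme1l1 probe sets only 1423361_at was called. Both bright ones had positive differences at both ages, and the dim pair was too imprecise to judge. The other bright one, 1450954_at, read 11.73, 11.50 and 11.55 in Tfr1-null at 10 weeks, against 11.59 in the doubtful library and 11.54, 10.99 and 11.12 in the other controls, and its 0.38 ± 0.13 did not pass (adjusted p = 0.107). At 3 weeks that probe set read 10.38 in the doubtful library and 10.79, 10.65 and 10.70 in the other Tfr1-null libraries, against 10.38, 10.43 and 10.42 in controls, and its 0.30 ± 0.13 did not pass either (adjusted p = 0.539). The remaining pair, 1423360_at and 1437822_at, lay at percentiles 34.7 to 62.3 of the arrays. Their 10-week differences were -0.05 ± 0.30 and -0.19 ± 0.50, with 95% intervals of -0.70 to 0.61 and -1.29 to 0.90. With each age fitted alone the 10-week call of 1423361_at was lost (adjusted p = 0.0545).

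Oma1, which shares the substrate Opa1 with Yme1l1, fell at 10 weeks. It read 8.06, 8.03 and 8.51 in Tfr1-null, against 8.95 in the doubtful library and 8.88, 8.91 and 8.60 in the other controls. The Tfr1-null values were all below the controls, and here the doubtful control lay with the controls. The difference was -0.60 ± 0.16 with 12 libraries (adjusted p = 0.0473, 0.662-fold) and -0.63 ± 0.15 with 14 (adjusted p = 0.0633). At 3 weeks Oma1 read 7.41 in the doubtful library and 7.55, 7.50 and 7.55 in the other Tfr1-null libraries, against 7.43, 7.55 and 7.95 in controls, a difference of -0.11 ± 0.16 (adjusted p = 0.977). The 10-week call of Oma1 was lost without any one of 5 libraries of 3 weeks, all but control 3 weeks 3 (adjusted p 0.0566 to 0.0724), where the 10-week difference itself stayed -0.60. Leaving out Tfr1-null 10 weeks 1 (0.128) or 2 (0.112) or control 10 weeks 2 (0.0983) or 3 (0.117) ended the call too. It was also lost with each age fitted alone (0.201), with array weights (0.205) and with a trended robust prior (0.0541).

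Afg3l2, the protease that faces the matrix and matures a mitochondrial ribosomal protein, had no called probe set among its 3. On the brightest, 1427207_s_at, it read 10.03 in the doubtful library and 10.42, 10.20 and 10.25 in the other Tfr1-null libraries, against 10.12, 10.16 and 10.09 in controls at 3 weeks. Its values at 10 weeks were 11.03, 11.09 and 11.28 in Tfr1-null, against 10.77 in the doubtful library and 10.76, 11.44 and 11.61 in the other controls. The 10-week controls spanned a wider range than the Tfr1-null libraries, and the differences with 12 libraries were 0.17 ± 0.19 at 3 weeks and -0.14 ± 0.19 at 10 weeks (95% interval -0.54 to 0.27). The other probe sets of Afg3l2 differed by -0.07 and -0.06 at 3 weeks and by 0.05 and 0.06 at 10 weeks.

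Htra2, whose loss in mice causes a movement disorder with loss of striatal neurons, overlapped between genotypes at both ages. On 1436269_s_at it read 10.19 in the doubtful library and 10.37, 10.11 and 10.20 in the other Tfr1-null libraries, against 10.30, 10.19 and 10.28 in controls at 3 weeks. At 10 weeks it read 11.18, 11.20 and 11.49 in Tfr1-null, against 11.17 in the doubtful library and 11.13, 11.32 and 11.44 in the other controls. With 12 libraries the differences were -0.03 ± 0.12 and -0.01 ± 0.12 (95% interval at 10 weeks -0.28 to 0.26), and on 1460495_s_at they were 0.01 ± 0.10 and 0.13 ± 0.10.

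Whether the genotype difference itself changed between 3 and 10 weeks was tested as the difference of both contrasts. With 12 libraries no member probe set passed, where 0.177% of all probe sets did, and 4 had unadjusted p under 0.05. The difference of contrasts was 0.61 ± 0.14 for Yme1l1 on 1423361_at (adjusted p = 0.153), -0.72 ± 0.20 for Hspe1 on 1422579_at (0.213), 0.56 ± 0.18 for Lonp1 (0.251) and -0.50 ± 0.16 for Hspe1 on 1450668_s_at (0.258), which are those 4. Oma1 had -0.49 ± 0.23 (0.448). With 14 libraries 0.0% of all probe sets passed, no member did, and 2 had unadjusted p under 0.05. A call at 10 weeks that was absent at 3 weeks is thus not shown to differ between the ages.

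Of 75 other genes of mitochondrial and cytosolic protein quality control in 7 lists, 67 were measured. With 14 libraries limma called 0 of them at either age. With 12 libraries it called 3 at 3 weeks, 2 higher and 1 lower, and 7 at 10 weeks, 3 higher and 4 lower. These are 4.48% and 10.4% of the measured genes, against 1.08% and 9.33% of all probe sets, so the 10-week share was near the background. The list shares count genes on their brightest probe set, while the background counts all probe sets. With 1 probe set per gene, 335 of 18193 genes were called at 3 weeks and 2015 at 10 weeks. Among 8 stress transcription factors, 2 rose at both ages. Ddit3 (CHOP), a factor induced by several cell stresses, differed by 1.59 ± 0.19 at 3 weeks and 1.88 ± 0.19 at 10 weeks (adjusted p = 0.0021 and 0.000321). Atf5, a relative of the factor that runs the mitochondrial unfolded protein response in worms, differed by 1.45 ± 0.22 and 1.91 ± 0.22 (adjusted p = 0.00779 and 0.000616). Atf4, the central factor of the integrated stress response, differed by 0.34 and 0.38 without passing (adjusted p = 0.634 and 0.199). The median of this list was 0.33 at 3 weeks and 0.26 at 10 weeks. With 14 libraries Ddit3 differed by 1.18 and 1.38 (adjusted p = 1.00 and 0.168) and Atf5 by 0.99 and 1.35 (1.00 and 0.223).

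Among 9 other matrix chaperones and cochaperones, 1 rose at 10 weeks and 0 passed at 3 weeks. Hspa9 (mortalin), the matrix HSP70 that pulls proteins in, averaged 13.56 in Tfr1-null and 12.86 in controls at 10 weeks, a difference of 0.71 ± 0.15 (adjusted p = 0.0166), and differed by 0.40 ± 0.15 at 3 weeks (adjusted p = 0.384). With 14 libraries its 10-week difference was 0.58 (adjusted p = 0.123). Clpb, the next of that list at 3 weeks, differed by 0.25 ± 0.10 (adjusted p = 0.407). Of 20 measured import translocase genes, 2 fell at 10 weeks, with a list median of -0.14, and 0 passed at 3 weeks, with a median of 0.04. The called pair was Pam16, a part of the import motor (-0.80 ± 0.17, adjusted p = 0.0176), and Timm9, a small chaperone of the intermembrane space (-0.51 ± 0.13, adjusted p = 0.041), which with 14 libraries differed by -0.67 and -0.45 (0.0913 and 0.096). Timm13 (0.17) and Tomm20 (0.14) had the smallest p at 3 weeks without passing (adjusted p = 0.783 and 0.808).

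Of 8 other inner membrane proteases and scaffolds, only Immp1l, a subunit of the inner membrane peptidase, fell at 10 weeks (-0.42 ± 0.11, adjusted p = 0.039, against -0.39 and 0.091 with 14 libraries), and 0 passed at 3 weeks, where Stoml2 (-0.25) and Afg3l1 (-0.14) had the smallest p (adjusted p = 0.607 and 0.803). None of the 5 genes of presequence and peptide processing passed at either age. The smallest p there belonged to Pmpca (0.13, adjusted p = 0.956) and Pmpcb (0.07, 0.972) at 3 weeks and to Xpnpep3 (0.46, 0.369) and Pmpcb (-0.11, 0.549) at 10 weeks. None of 4 substrates of Oma1 and Yme1l1 passed. Dele1 differed by 0.52 ± 0.17 (adjusted p = 0.0828) and Stard7 by 0.17 ± 0.09 (0.262) at 10 weeks, and Stard7 by 0.24 ± 0.09 (0.373) and Prelid1 by 0.27 ± 0.12 (0.552) at 3 weeks. Of 13 cytosolic chaperones, 1 fell at both ages, the small heat shock protein Hspb8, with differences of -2.12 ± 0.17 at 3 weeks (adjusted p = 0.000168) and -1.22 ± 0.17 at 10 weeks (0.00189). In that list 0 genes passed as higher, though the highest differences were 1.71 at 3 weeks and 1.63 at 10 weeks. The list medians were -0.06 and -0.02. With 14 libraries Hspb8 differed by -1.60 and -0.97 (adjusted p = 1.00 and 0.268).

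**Figure D4:**
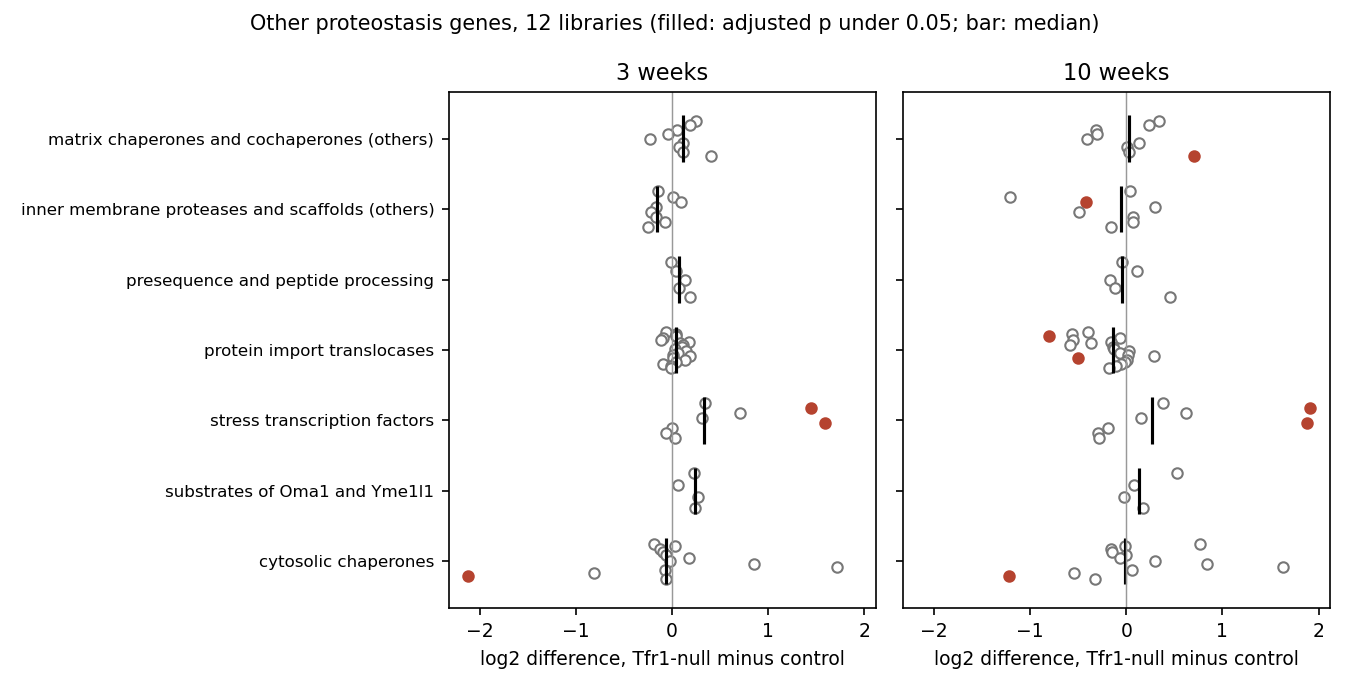
Log2 difference (Tfr1-null minus control, horizontal axis, 12 libraries) of each measured gene of 7 lists of protein quality control (vertical axis) at 3 weeks (left panel) and 10 weeks (right panel); points are genes, filled points passed adjusted p under 0.05 and bars are list medians. Ddit3 and Atf5 are the filled points near 1.5 and 1.9 in the list of stress factors, and Hspb8 is the filled point left of -1 at both ages.

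The genes whose signal ran most like that of Lonp1 across the 14 libraries, each centred on the mean of its age, were Cd68 (Pearson r = 0.976), Xpot (0.973), Nfil3 (0.971), Gars (0.969) and Atf3 (0.969). For Hspd1 they were Usp14 (0.955), Syt8 (0.919), Zscan18 (0.919), Tlr9 (0.910) and Hnrnph2 (0.909). These are descriptions over 14 libraries that share their genotype groups and arrays, and the Hspd1 values hold 1 low library, control 10 weeks 3.

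Some markers of cell types differed between the genotypes, but most were not called. With 12 libraries 1.08% of all probe sets were called at 3 weeks and 9.33% at 10 weeks. With 14 libraries no marker of any list was called at either age. The libraries hold mRNA pulled out of a tissue lysate, so marker signals do not measure the make-up of the tissue. Fewer cells of a type, less RNA per cell and another yield of the pull-down cannot be told apart in these libraries. None of 8 markers of dopaminergic neurons was called, but their summed linear signal was lower in Tfr1-null with 12 libraries, with 54000 to 57100 against 61600 to 64400 in controls at 3 weeks, and 87900 to 107000 against 115000 to 118000 in controls at 10 weeks. With 14 libraries the Tfr1-null range at 3 weeks ended at 61500 and the control range at 10 weeks began at 90500, so the groups overlapped at 10 weeks. The sum is weighted to the brightest genes. With 12 libraries the differences of the 8 markers ran from -0.34 to -0.11 at 3 weeks (median -0.17) and from -1.86 to 0.10 at 10 weeks (median -0.31). Th, the enzyme that makes the dopamine precursor, averaged 14.30 in Tfr1-null and 14.53 in controls at 10 weeks, and Slc6a3, the dopamine transporter, 14.08 and 14.39, so both stayed among the bright signals.

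Of 8 microglia markers, Cd68 alone was called with 12 libraries, at both ages. It read 7.61, 7.39 and 7.42 in Tfr1-null and 5.49 in the doubtful library, against 5.67, 5.38 and 5.33 in controls at 3 weeks. At 10 weeks it read 10.51, 10.65 and 10.22 in Tfr1-null, against 9.96 in the doubtful library and 6.46, 6.85 and 6.44 in the other controls, a difference of 3.87 ± 0.16 (adjusted p = 6.67e-07). The summed microglia signal at 3 weeks was 1320 to 1820 in Tfr1-null and 1420 to 1620 in controls, and at 10 weeks 4180 to 6730 in Tfr1-null and 1910 to 3590 in controls with 12 libraries. Cd68 is part of these sums, and no sum was made without it, so the sums do not show that the other markers rose. With 12 libraries the differences of the 8 markers at 10 weeks ran from -0.34 to 3.87, with a median of 0.45. The library labelled control 10 weeks 1 had the highest sum of its age, 7610. Of 3 markers of GABAergic neurons, Slc32a1 was called at 10 weeks (0.70 ± 0.13, adjusted p = 0.00923), and their sum was 8580 to 11400 in Tfr1-null and 6810 to 8300 in controls, or up to 11100 in controls with 14 libraries. None of 7 astrocyte, 6 oligodendrocyte, 6 endothelial and 2 glutamatergic markers was called. The endothelial sum at 3 weeks was 415 to 434 in Tfr1-null with 12 libraries and 415 to 707 with 14, against 472 to 617 in controls. The astrocyte sum at 10 weeks was 19500 to 26800 in Tfr1-null, against 17200 to 24000 in controls with 12 libraries and 17200 to 28000 with 14. No marker of any of these lists lay under the 25th percentile on all arrays. The part of these markers in the changes of Lonp1, Yme1l1, Hspe1 and Oma1 was not tested.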

How the data were processed

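The authors deposited 1 table of log2 expression values, made with RMA (robust multi-array averaging, which corrects background, normalizes between arrays and summarises probes) in Partek 6.5, per the submitters' processing notes. Each library came from 50 ng of RNA, amplified with NuGEN Ovation V2 and run on an Affymetrix array, per the labels' protocols. The array medians differ by age, and the sources used here do not say whether the ages were normalized together.

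Of 45101 probe sets, 34958 carried 1 gene symbol in the platform annotation, 932 several and 9211 none. 13 control probe sets with a symbol were left out, which left 34945. No dim probe set was removed, and 0 member probe sets lay under the 25th percentile of any array. Libraries were grouped by title and genotype. limma 3.58.1 in R 4.3.3 (lmFit and eBayes) fitted 1 mean per group with a shared spread per probe set, with 10 residual and 2.72 prior degrees of freedom for 14 libraries and 8 and 2.73 for 12. Benjamini-Hochberg adjustment ran over all 34945, and a call is an adjusted p under 0.05. The script was tested on simulated data. Tables and figures used Python 3.11.15, pandas 2.3.3, numpy 2.4.6 and matplotlib 3.10.9. Fold changes are 2 to the power of the log2 difference, and the number of arrays limits the precision.

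The named genes are every probe set of the members, Tfrc, Th, Slc6a3, up to 4 called genes of each pathway list (otherwise the 2 with the smallest p) and the 5 most alike to Lonp1 and to Hspd1. In lists a gene is its brightest probe set. Lists were matrix chaperones, inner membrane proteases and scaffolds, presequence processing, import translocases, stress transcription factors, substrates of Oma1 and Yme1l1, and cytosolic chaperones, with markers of 7 cell types. Atf4 and Slc32a1 were named outside that rule, after their values were seen. The members, the lists and the 2 libraries left out were chosen with earlier results of these data known. Alternatives were other scalings within each age, 1 probe set per gene, a filter on dim probe sets, each age alone, array weights, a trended robust prior, a replicate block and leaving out each library.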

Additional observations from a re-analysis of the deposited data

Results flagged for a closer look

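In 2 of the 40 groups of 4 libraries tested, 1 library lay far from the other 3, with a gap to the nearest, as a share of the group's range, above Dixon's 95% limit. Chance gives about 1 such group in 20, which for 40 groups is as many as were found. Hspd1 read 12.945 in control 10 weeks 3, against 13.291 to 13.304 in the other controls of that age, with a gap of 0.964 of the range. Lonp1 read 11.512 in the library labelled control 10 weeks 1, against 10.299 to 10.502 in the other controls, with a gap of 0.832 of the range. The second is a library with a doubtful label, and without it the 10-week difference of Lonp1 was 1.19, against 0.92 with it. The cause of either value was not tested.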

How the results depend on the processing

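With 14 libraries, the count of member probe sets called at 10 weeks was 0, and it was 4 with the 12 libraries, 1 with quantile normalization within each age, 1 with a trended robust prior (Yme1l1 1423361_at both times) and 0 to 4 without single libraries, the 4 being without control 10 weeks 1. At 3 weeks it was 0 with 14 libraries, 1 with the 12, and 0 without any single library. With 12 libraries the count at 10 weeks was 4. It was 2 with 1 probe set per gene, where 10 member probe sets were tested, 2 with array weights, 1 (Lonp1) with each age fitted alone and 2 to 4 without single libraries. With a trended robust prior it stayed at 4, but Oma1 was lost and Hspe1 1450668_s_at gained (adjusted p = 0.0541 and 0.0402). At 3 weeks the count of 1 became 0 to 1 without single libraries. Deviations of same-numbered libraries from their group means correlated at -0.0148 to 0.123 at 3 weeks and -0.0285 to 0.0814 at 10 weeks. Those means include the doubtful libraries and the groups are small, so these values cannot decide whether the replicate numbers pair the libraries. With the replicate numbers as a block the 12-library counts were 0 at 3 weeks and 0 at 10 weeks. Lonp1 then differed by 0.71 and 1.10 (adjusted p = 0.404 and 0.0955), and no member probe set was called. Among the 12 libraries only replicates 2 and 3 held both genotypes at each age. The differences with the block therefore come from those pairs alone, on fewer libraries than in the other fits. The cause of these changes was not tested. Over all probe sets, the 12-library calls at 10 weeks numbered 3260, against 2015 with 1 probe set per gene, 1086 with array weights, 287 with each age alone and 3 with the block. At 3 weeks they numbered 378, against 2035, 1115 and 0 with weights, each age alone and the block, and 206 to 472 without single libraries. With 14 libraries they numbered 258 at 10 weeks, against 6, 1 and 0 in the same order and 15 to 3152 without single libraries, and 0 at 3 weeks, against 544 with weights and 45 without Tfr1-null 3 weeks 1. The 62 calls of the difference of contrasts ranged from 12 to 118 without single libraries and were 0 with the block. Single differences were followed under the alternatives for the brightest probe set of each member and for the called ones, not for the other member probe sets. Of these 1024 recomputed differences, 974 kept their side of the threshold, 37 lost a call and 13 gained one. The sign changed in 45, of which 0 were of called results, and the reported differences among them were at most 0.14 in size. Cross-hybridization of the probe sets with suffixes s and x cannot be judged from these values.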
